A study of Solanum lycopersicum with 9 samples.

Results

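The energy class of the study's annotation held 33 probe sets, which measure the transcripts of enzymes and carriers of respiration, carbon metabolism and photosynthetic electron transport. Members were the probe sets whose functional category was given as energy in the study's list of 607 called probe sets, out of 10038 non-control probe sets on the array. The annotation gave an enzyme or protein name for 20 members, a general carbohydrate-binding and catalytic function for 1, and no name for 12. In 2 pairs the probe sets were marked as redundant, so the 33 probe sets stood for 31 genes. The list was selected on the signals of the same 9 arrays for differences among the same 3 treatments, so the values below describe the class and are no test of it.

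Roots that take up NH4+ bind it onto carbon skeletons, mainly 2-oxoglutarate, to make glutamine and glutamate. Glycolysis, pyruvate dehydrogenase and the tricarboxylic acid cycle supply these skeletons and ATP, and the oxidative pentose phosphate pathway supplies NADPH. Phosphoenolpyruvate carboxylase makes oxaloacetate from phosphoenolpyruvate and so refills the cycle as skeletons are withdrawn.

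Total root RNA came from wild-type tomato (Solanum lycopersicum cv. 76R) grown in pots of field soil and colonised by mycorrhizal fungi. Only roots that had grown into a buried ring of soil were collected, 53 h after treatment of the ring. The high NH4+ group received 65 μg of 15N-labelled NH4+-N for each gram of soil, the low NH4+ group 6.5 μg, and the control group water alone. Each treatment had 3 biological replicates, each on 1 Affymetrix Tomato GeneChip, an array of short oligonucleotide probes that gives 1 signal per probe set. Values below are log2 signals, and SE is the standard error of a log2 difference in a limma fit of all 9 arrays. A probe set was called at a false discovery rate of 10% over the 6669 probe sets whose signal reached 100 on at least 1 array, and all 33 members were among them. Whole roots were sampled, so fewer cells of a type and less RNA per cell cannot be told apart. The array number limits the precision, and signals of different probe sets are not compared.

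The arrays differed in ways the treatments did not fix. Median log2 signals ran from 6.87 in low NH4+ replicate 2 to 7.59 in water replicate 3, and these 2 arrays lay at the opposite ends of the first principal component. The 3 low NH4+ arrays had lower medians (6.87 to 7.15) than the other 6 arrays (7.23 to 7.59). Control probe sets at the 3′ and 5′ ends of actin, elongation factor 1α and GAPDH, which report on RNA integrity, differed by 1.78, 1.72 and 0.92 in low NH4+ replicate 1 and by 3.00, 3.35 and 1.92 in low NH4+ replicate 2. In the other 7 arrays these differences lay between -0.01 and 1.17. Further 5′ probe sets of elongation factor 1α, not used here, had lower signals on every array and so would give larger differences. This sign of RNA quality moved with 2 of the 3 low NH4+ arrays, and its part in the low NH4+ values below was not tested. Of 5 root genes matched on the array, AMT1, NRT2.1, RSI-1 and PT1 reached a signal of 100 on every array, and FER on all water and high NH4+ arrays and no low NH4+ array. These genes also moved: in high NH4+ AMT1 (-0.85) and FER (-0.86) were called lower and NRT2.1 (1.38) higher, and in low NH4+ FER was called lower (-2.12).

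**Figure D1:**
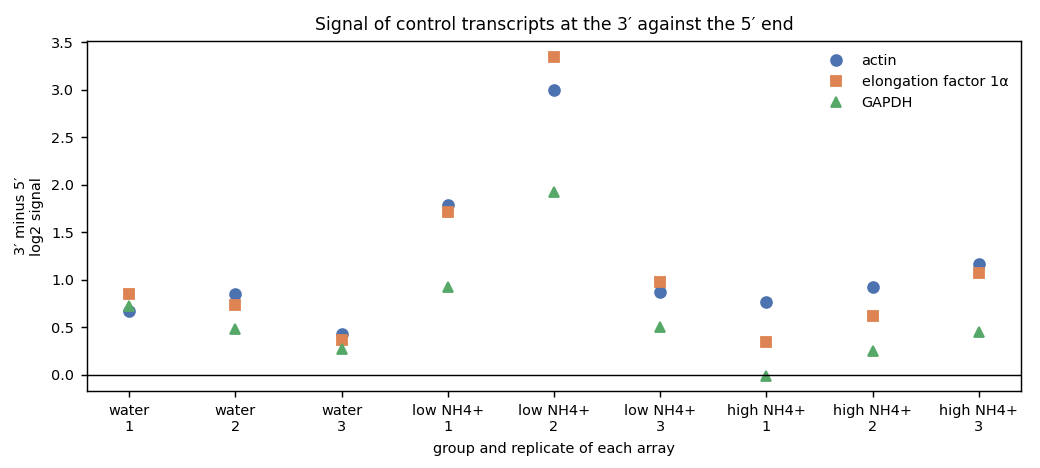
Each point is the log2 signal of a control transcript's 3′ probe set minus that of a 5′ probe set (y axis) on each of the 9 arrays (x axis, group and replicate). For elongation factor 1α the 5′ probe set is the one with the highest signals. Low NH4+ replicates 1 and 2 stand above the other arrays, with actin at 1.78 and 3.00 against at most 1.17 elsewhere.

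In high NH4+ the called members included GPI1, 2 pyruvate dehydrogenase probe sets, 3 malate dehydrogenases, 6-phosphogluconate dehydrogenase and UCP among those higher, and PSBR among those lower. Phosphoenolpyruvate carboxylase and its kinase PPCK1 were called lower at both doses. In high NH4+, 23 of 33 members were called against water, 14 higher and 9 lower (background over all probe sets tested 6.52%, with 2.73% higher and 3.79% lower). All 3 high NH4+ arrays lay above all 3 water arrays for 17 members (background 13.4%) and below them for 13 (19.6%). In low NH4+, 9 members were called, 1 higher and 8 lower (background 2.98%, with 0.54% higher and 2.44% lower). The 3 low NH4+ arrays lay above the water arrays for 8 members (7.78%) and below them for 13 (17.5%). Between high and low NH4+, 3 members were called, all higher in high NH4+ (background 0.9%, with 0.84% higher and 0.06% lower). These shares cannot be read as results about the class, since signals of the same arrays chose it. Comparisons with water share the 3 water arrays.

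The median log2 difference of the 33 members from water was 0.45 in high NH4+ (all probe sets -0.08) and -0.21 in low NH4+ (all -0.16). The median size of the difference, sign ignored, was 0.88 in high NH4+ (all 0.29) and 0.52 in low NH4+ (all 0.31). Differences from water had the same sign at both doses for 30 members, 16 above and 14 below, and 3 members lay above water in high and below it in low NH4+. Both differences use the same water arrays, and these arrays chose the members, so the shared signs are no result about the class. With each array centred on its median the called members split as 8 higher and 8 lower in high NH4+ and as 5 higher and 5 lower in low NH4+. The split over all probe sets also moved, from 182 higher and 253 lower to 221 and 136 in high NH4+. In low NH4+ it moved from 36 higher and 163 lower to 211 and 109. This centring ended the high NH4+ calls of pyruvate dehydrogenase, mMDH1, mitochondrial malate dehydrogenase-like, GAMMA CAL2-like and AAE7/ACN1-like among the named members. In low NH4+ it ended those of PPCK1 and AAE7/ACN1-like, and it called mMDH1, mitochondrial malate dehydrogenase-like, GAMMA CAL2-like and the second 6-phosphogluconate dehydrogenase probe set higher. The number of members called also rested on single arrays, as did the number over all probe sets. In high NH4+ the members called were 0, 1 and 14 when the first, the second or the third high NH4+ array was left out, and 2 and 6 when the first or the third water array was. Over all probe sets the high NH4+ omissions left 4 higher and 2 lower, 3 and 3, and 136 and 149. The water omissions left 6 and 5, and 39 and 30, against 182 and 253 with all arrays. In low NH4+ the number of members called was 1 in a fit lacking the first or the third water array or the third high NH4+ array. It was 2 lacking the first or the second low NH4+ array, 4 lacking the first or the second high NH4+ array, and 14 lacking the third low NH4+ array. Over all probe sets that last fit called 173 higher and 955 lower in low NH4+, against 36 and 163 with all arrays. The other fits named for low NH4+ called at most 14 higher and 25 lower. Between the doses no member was called by limma lacking the first or the third water array, the second low NH4+ array, or the first or the second high NH4+ array (9 to 14 members had an unadjusted p under 0.05). The count was 11 lacking the third low NH4+ array and 2 lacking the second water array, the first low NH4+ array or the third high NH4+ array. Over all probe sets the fit lacking the third low NH4+ array called 696 higher and 166 lower between the doses, against 56 and 4 with all arrays. The other fits called at most 94 higher and 10 lower. The sign of every member's difference in high NH4+ was kept in each of these fits.

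**Figure D2:**
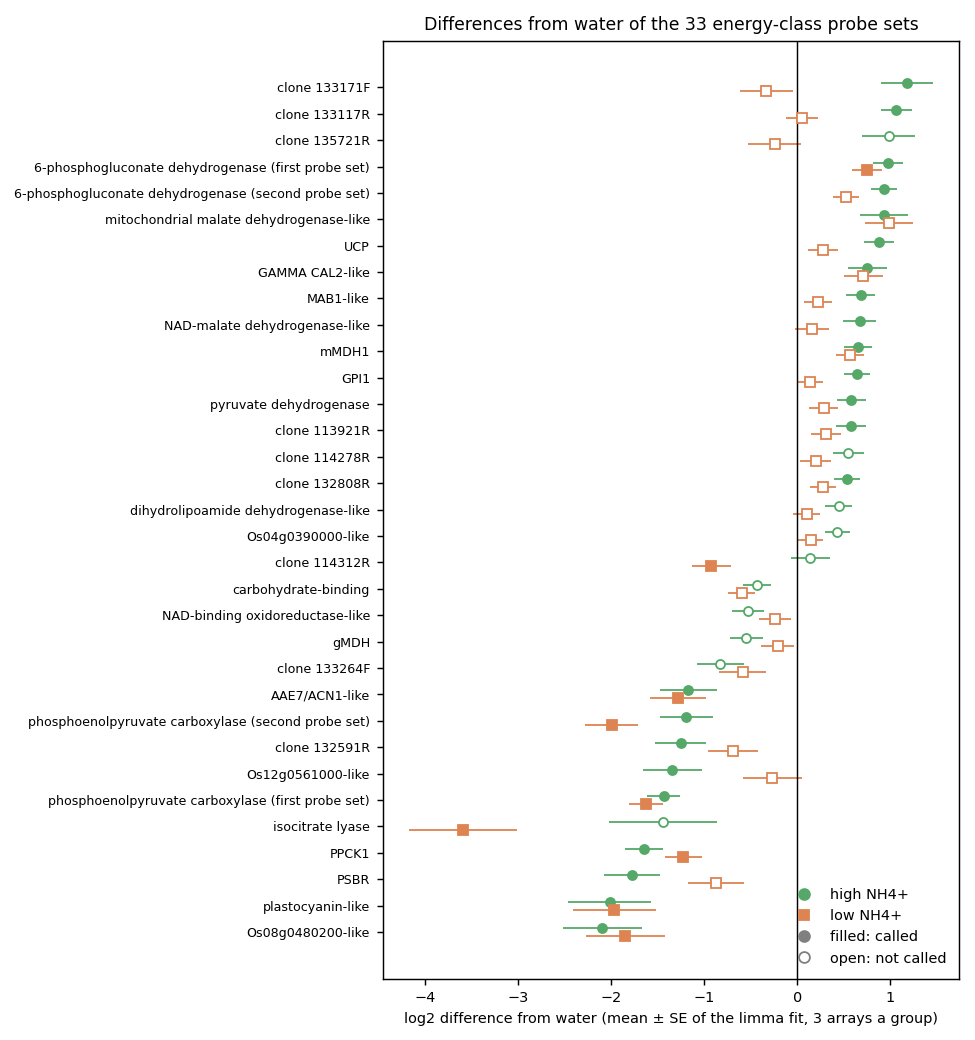
Log2 difference from water (x axis, with the SE of the limma fit, 3 arrays a group) of each of the 33 members (y axis) in high NH4+ (circles) and low NH4+ (squares), ordered by high NH4+; filled symbols were called. Filled circles make up 14 members on the right of 0 and 9 on the left, and filled squares make up 1 and 8.

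Glycolysis and the pyruvate dehydrogenase complex, which turns pyruvate into acetyl-CoA in mitochondria, were represented by 4 members, 3 of them called higher in high NH4+ and none in low NH4+. GPI1, the phosphoglucose isomerase that interconverts glucose 6-phosphate and fructose 6-phosphate, had log2 signals of 9.46, 9.40 and 9.53 in water, 9.62, 9.48 and 9.70 in low NH4+ and 10.09, 10.22 and 10.01 in high NH4+. It was 1.56-fold higher in high NH4+ than in water (log2 difference 0.64, SE 0.14), and every high NH4+ array lay above every other array. The MAB1-like probe set, whose Arabidopsis counterpart encodes the E1β subunit of mitochondrial pyruvate dehydrogenase, read 10.35, 10.00 and 9.99 in water, 10.34, 10.38 and 10.29 in low NH4+ and 10.69, 10.89 and 10.80 in high NH4+. The high NH4+ arrays again stood clear of the rest (1.60-fold, log2 difference 0.68, SE 0.15), while low NH4+ overlapped water.

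A further pyruvate dehydrogenase probe set read 9.90, 9.72 and 9.81 in water, 10.17, 10.23 and 9.88 in low NH4+ and 10.42, 10.51 and 10.24 in high NH4+, 1.5-fold above water in high NH4+ (log2 difference 0.58, SE 0.16). Of these members it held its call in the fewest fits, 2 of the 9 that left out 1 array, against 5 for GPI1 and 4 for MAB1-like. The dihydrolipoamide dehydrogenase-like member, the component that reoxidises the lipoyl group of the complex, read 9.77, 9.97 and 10.05 in water, 10.02, 9.97 and 10.12 in low NH4+ and 10.29, 10.52 and 10.33 in high NH4+. Its high NH4+ arrays lay above all others, but the difference of 0.45 (SE 0.15) was not called.

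Malate dehydrogenases, which interconvert malate and oxaloacetate, were represented by 4 members that did not move alike. mMDH1, a mitochondrial form, read 11.05, 10.98 and 10.87 in water, 11.36, 11.74 and 11.50 in low NH4+ and 11.55, 11.69 and 11.63 in high NH4+. It was called 1.57-fold higher in high NH4+ (log2 difference 0.65, SE 0.15). In low NH4+ its arrays also lay above water, by 0.56, without a call. A mitochondrial malate dehydrogenase-like member read 10.91, 11.08 and 10.44 in water, 11.43, 12.26 and 11.71 in low NH4+ and 11.50, 11.91 and 11.81 in high NH4+. Both doses lay above water on all arrays, by 0.93 in high NH4+ (SE 0.26, called) and 0.99 in low NH4+ (SE 0.26, not called), and its highest array was low NH4+ replicate 2. Without that array the low NH4+ difference was 0.76.

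The NAD-malate dehydrogenase-like member read 7.16, 7.38 and 7.33 in water, 7.36, 7.34 and 7.65 in low NH4+ and 8.18, 8.03 and 7.67 in high NH4+. It was called 1.59-fold higher in high NH4+ (log2 difference 0.67, SE 0.18), and low NH4+ overlapped water. gMDH, the glyoxysomal form, had the opposite sign, at 8.62, 8.41 and 8.54 in water, 8.19, 8.61 and 8.14 in low NH4+ and 7.93, 7.84 and 8.16 in high NH4+. All its high NH4+ arrays lay below water (log2 difference -0.55, SE 0.18), without a call. In low NH4+ it overlapped water, and the difference of -0.21 became 0.15 with each array centred on its median and 0.023 after quantile normalization. A non-member probe set of mMDH1 read 11.41, 11.49 and 11.48 in water, 11.36, 11.13 and 11.84 in low NH4+ and 11.77, 11.98 and 11.84 in high NH4+, with no call in any comparison. Over the 9 arrays the 2 mMDH1 probe sets had a Pearson correlation of 0.33, a description across arrays that share treatments. The identifier of the mMDH1 member carries the suffix that Affymetrix gives to probe sets matching several similar transcripts, so its signal may not belong to 1 gene.

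6-phosphogluconate dehydrogenase, which yields NADPH and ribulose 5-phosphate in the oxidative pentose phosphate pathway, was the only named enzyme called higher at both doses. The first of its 2 probe sets read 10.64, 10.60 and 10.64 in water, 11.29, 11.67 and 11.17 in low NH4+ and 11.49, 11.63 and 11.69 in high NH4+. Both NH4+ groups lay clear of water, by 0.98 in high NH4+ (1.97-fold, SE 0.16) and 0.75 in low NH4+ (1.68-fold, SE 0.16), both called. The second probe set read 10.39, 10.24 and 10.48 in water, 11.00, 10.80 and 10.88 in low NH4+ and 11.26, 11.35 and 11.30 in high NH4+. Its difference of 0.93 in high NH4+ (SE 0.14) was called and that of 0.52 in low NH4+ (SE 0.14) was not, although no low NH4+ array reached down to water. The 2 probe sets had a Pearson correlation of 0.90 over the 9 arrays. The low NH4+ call of the first probe set was lost without any 1 of 7 arrays and held only without the second water array or the third low NH4+ array.

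Both members of the mitochondrial inner membrane were called higher in high NH4+. UCP, an uncoupling protein of the mitochondrial carrier family, read 7.82, 7.88 and 8.17 in water, 8.14, 8.27 and 8.28 in low NH4+ and 8.82, 9.00 and 8.67 in high NH4+. It was 1.84-fold above water in high NH4+ (log2 difference 0.88, SE 0.16), where all arrays exceeded every other array, and 0.27 above it in low NH4+, with overlap. GAMMA CAL2-like, whose Arabidopsis counterpart is a γ-carbonic anhydrase-like subunit of respiratory complex I, read 8.62, 9.40 and 8.81 in water, 9.64, 9.71 and 9.60 in low NH4+ and 9.86, 9.55 and 9.67 in high NH4+. It lay above water at both doses, by 0.75 in high NH4+ (SE 0.21, called) and 0.71 in low NH4+ (SE 0.21, not called), with no separation between the doses. The call of UCP was kept in 6 of the 9 fits without 1 array and that of GAMMA CAL2-like in 2.

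**Figure D3:**
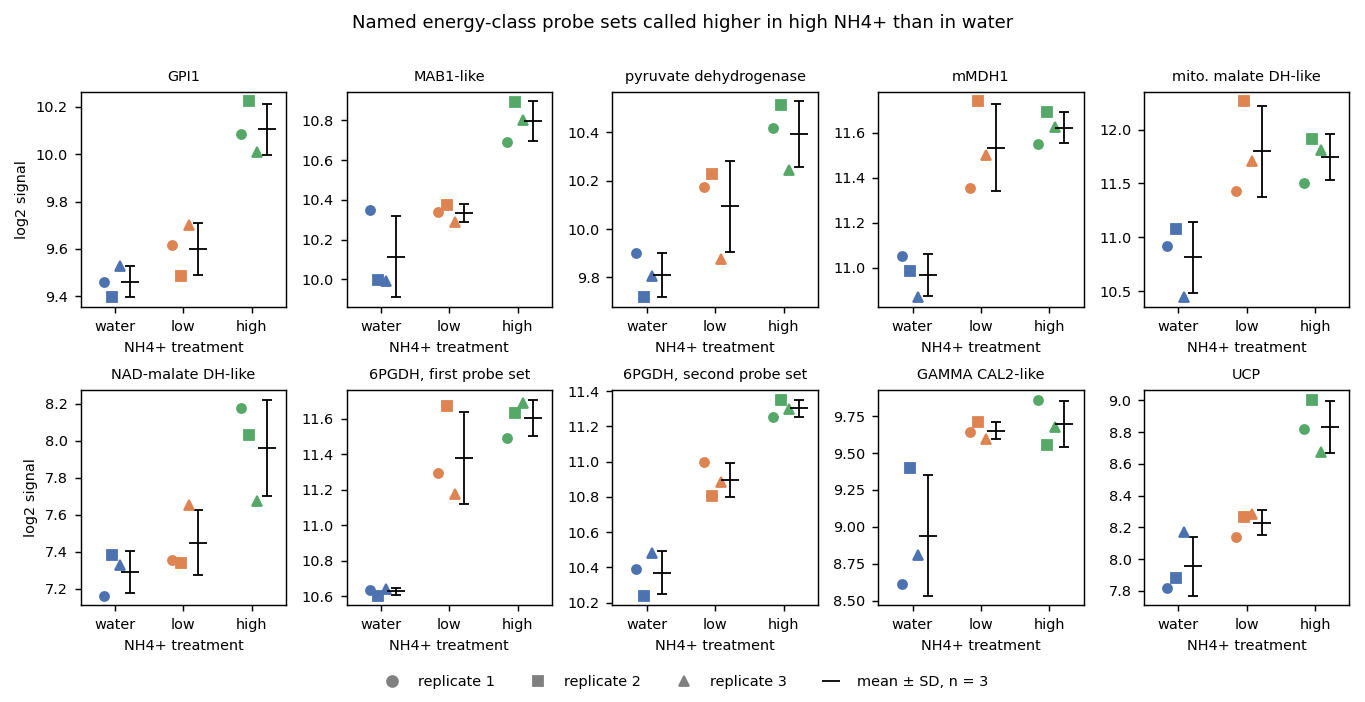
Log2 signal (y axis, a separate scale in each panel) of 10 named members called higher in high NH4+ than in water, by NH4+ treatment (x axis). Symbols are the 3 replicates of each group and bars the mean ± SD, and in all 10 panels the high NH4+ arrays lie above the water arrays.

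Transcripts for phosphoenolpyruvate carboxylation were lower at both doses, with all 3 members called in both comparisons. The first phosphoenolpyruvate carboxylase probe set read 9.16, 9.21 and 9.36 in water, 7.79, 7.27 and 7.78 in low NH4+ and 7.86, 7.66 and 7.91 in high NH4+. It fell 2.71-fold in high NH4+ (log2 difference -1.44, SE 0.18) and 3.09-fold in low NH4+ (-1.63, SE 0.18), and the doses overlapped each other. The second probe set of the enzyme read 8.23, 8.40 and 8.49 in water, 6.62, 5.70 and 6.81 in low NH4+ and 7.32, 6.87 and 7.35 in high NH4+. It fell 2.29-fold in high NH4+ (-1.19, SE 0.29) and also fell in low NH4+ (-2.0, SE 0.29), where 1 of 3 arrays reached a signal of 100. With lower signals set to 100 the low NH4+ difference was -1.67. The 3 low NH4+ arrays lay below the 3 high NH4+ arrays (0.80, SE 0.29, not called), and the lowest was low NH4+ replicate 2, without which the low NH4+ difference was -1.66. The 2 probe sets had a Pearson correlation of 0.95 over the 9 arrays.

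PPCK1, the protein kinase that phosphorylates phosphoenolpyruvate carboxylase and makes it less sensitive to inhibition by malate, read 10.05, 10.01 and 10.00 in water, 8.56, 9.05 and 8.78 in low NH4+ and 8.46, 8.01 and 8.65 in high NH4+. It fell 3.14-fold in high NH4+ (-1.65, SE 0.20) and 2.34-fold in low NH4+ (-1.22, SE 0.20), outside the range of its water arrays. With each array centred on its median the low NH4+ difference was -0.86 and was not called. The low NH4+ call of the first carboxylase probe set was kept in 9 of 9 fits without 1 array. Its high NH4+ call was lost without high NH4+ replicate 1 or 2, and that of PPCK1 without high NH4+ replicate 1 alone. The second carboxylase probe set kept its high NH4+ call in 4 of 9 fits and its low NH4+ call in 6 of 9. The low NH4+ call of PPCK1 was kept in 4 of 9 fits and was lost in the fits lacking the first or the third water array, the first or the second low NH4+ array, or the third high NH4+ array. PPCK2, a second kinase gene outside the class, read 8.82, 8.49 and 7.72 in water, 7.03, 7.61 and 7.39 in low NH4+ and 7.27, 7.85 and 7.84 in high NH4+, with no call in either comparison.

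Isocitrate lyase, which splits isocitrate into glyoxylate and succinate in the glyoxylate cycle, had the largest difference of any member and the largest spread. It read 9.16, 9.18 and 10.55 in water, 5.72, 5.93 and 6.46 in low NH4+ and 9.22, 6.92 and 8.44 in high NH4+. In low NH4+ all arrays lay below water and under the limit of 100 (log2 difference -3.60, SE 0.58, called), so only a bound is given there, at least 7.94-fold lower with signals under 100 set to 100 (log2 difference -2.99). High NH4+ overlapped water (-1.44, SE 0.58, not called) and lay above low NH4+ on all arrays (2.16, SE 0.58, or 1.55 with signals under 100 set to 100, neither called). The low NH4+ difference was -3.55 without low NH4+ replicate 2 and -3.14 without water replicate 3, and neither fit called it.

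The AAE7/ACN1-like member, whose Arabidopsis counterpart activates acetate to acetyl-CoA in peroxisomes, read 7.48, 7.33 and 7.91 in water, 6.23, 6.73 and 5.90 in low NH4+ and 6.97, 6.20 and 6.04 in high NH4+. It fell in high NH4+ (-1.17, SE 0.30) and in low NH4+ (-1.28, SE 0.30), with the doses overlapping. Only 1 array of each NH4+ group reached a signal of 100, and with lower signals set to 100 the differences were -0.82 and -0.90. Its calls were kept in 3 and 2 of the 9 fits without 1 array, and that of isocitrate lyase in low NH4+ in 4.

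**Figure D4:**
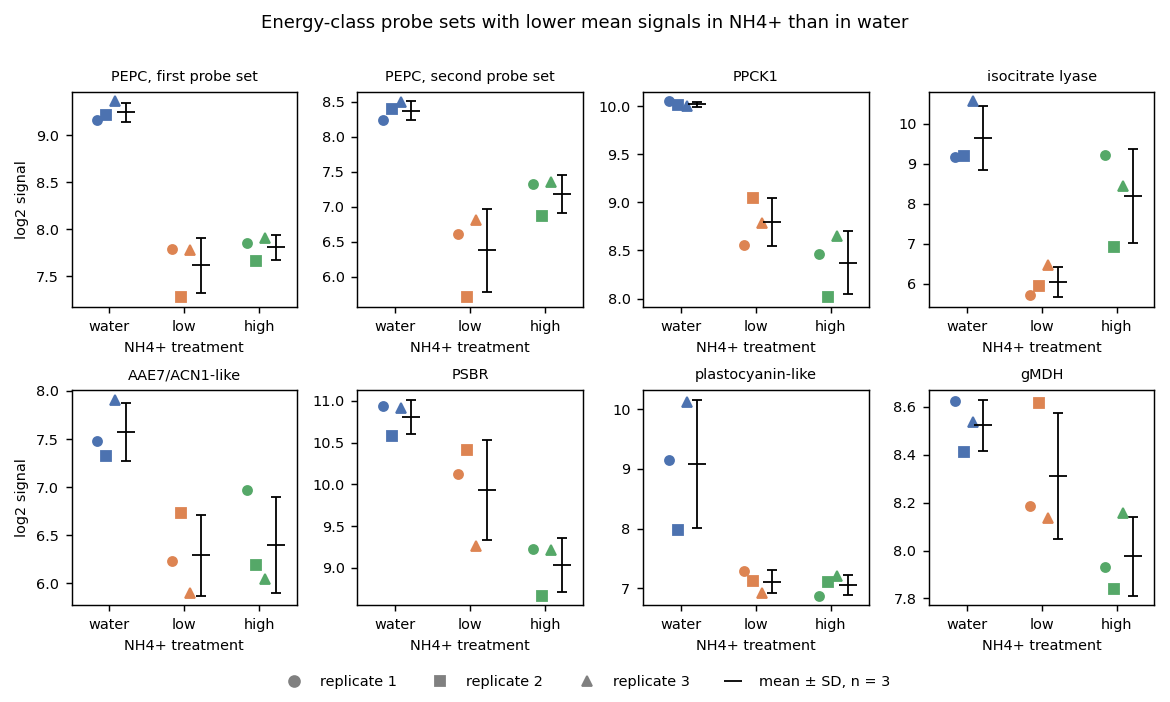
Log2 signal (y axis, a separate scale in each panel) of 8 members whose mean was lower in both NH4+ groups than in water (for gMDH in low NH4+ not so under median centring or quantile normalization), by NH4+ treatment (x axis), with the 3 replicates of each group and the mean ± SD. Isocitrate lyase spans from 5.72 to 10.55 and is lowest in low NH4+. It overlaps water in high NH4+, and gMDH overlaps water in low NH4+. In all other panels, with both phosphoenolpyruvate carboxylase (PEPC) probe sets among them, no NH4+ array reaches the water arrays.

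Of 3 members for photosynthetic electron transport and redox reactions, 2 were called lower in high NH4+ and 1 in low NH4+. PSBR, a photosystem II polypeptide, read 10.94, 10.58 and 10.91 in water, 10.13, 10.41 and 9.26 in low NH4+ and 9.22, 8.67 and 9.22 in high NH4+. It fell 3.42-fold in high NH4+ (-1.77, SE 0.30), below every other array, and its low NH4+ difference of -0.88 (SE 0.30) was not called. A plastocyanin-like member, of the copper protein family that includes the electron carrier between the cytochrome complex and photosystem I, read 9.15, 7.98 and 10.12 in water, 7.30, 7.12 and 6.92 in low NH4+ and 6.88, 7.10 and 7.21 in high NH4+. It fell 4.05-fold in high NH4+ (-2.02, SE 0.45) and 3.91-fold in low NH4+ (-1.97, SE 0.45). Its water arrays spread more widely than its NH4+ arrays, and without water replicate 3 the differences were -1.5 and -1.45, neither of them called.

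A list of photosynthesis genes that includes the member PSBR had higher summed signals in water than in high NH4+. The list of 8 probe sets of green tissue (CAB4, CAB5, CAB6A, PETE, PSBO, PSBP, PsbQ and PSBR) had summed linear signals of 1962 to 2916 in water, 760 to 1641 in low NH4+ and 555 to 1011 in high NH4+. Without PSBR the sums were 435 to 990 in water, 148 to 519 in low NH4+ and 148 to 415 in high NH4+. CAB5, CAB6A and PETE, the plastocyanin gene, did not reach a signal of 100 on any array. The 4 tested genes without PSBR had a median log2 difference of -1.29 in high NH4+ and -1.17 in low NH4+, and 0 of them were called by limma. PSBP and PsbQ reached a signal of 100 on 1 water array each and 0 NH4+ arrays, so they were tested only through water. PSBO reached it on 3 water, 1 low NH4+ and 0 high NH4+ arrays, and CAB4 on 3, 1 and 2. CAB4 overlapped water in high NH4+. These medians and the sums without PSBR thus rest largely on signals under 100 in NH4+ and are no support for a fall. Nor are the sums with PSBR, since they hold the member itself. The part of these genes in the values of PSBR and the plastocyanin-like member was not tested. A NAD-binding oxidoreductase-like member read 10.43, 10.37 and 10.85 in water, 10.31, 10.31 and 10.31 in low NH4+ and 9.93, 9.91 and 10.21 in high NH4+. Both NH4+ groups lay below water on all arrays, by -0.53 in high NH4+ (SE 0.17) and -0.24 in low NH4+, without a call, and with each array centred on its median the low NH4+ value was 0.13.

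The carbohydrate-binding member read 7.28, 7.06 and 7.41 in water, 6.61, 6.58 and 6.77 in low NH4+ and 6.75, 6.82 and 6.89 in high NH4+. No NH4+ array reached the water range (-0.43 in high NH4+ and -0.60 in low NH4+, SE 0.15), and neither difference was called.

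Of the 12 members with no name, 4 were called higher and 3 lower in high NH4+, 2 lower in low NH4+ and 3 higher in high than in low NH4+. Their log2 differences ran from -2.10 to 1.18 in high NH4+ and from -1.85 to 0.31 in low NH4+. The 3 members called between the doses were all of this kind. Clone 133171F read 8.55, 9.17 and 8.62 in water, 8.72, 8.17 and 8.46 in low NH4+ and 10.45, 9.97 and 9.47 in high NH4+, 2.85-fold higher in high than in low NH4+ (1.51, SE 0.28). Clone 133117R read 10.02, 9.64 and 10.01 in water, 10.12, 9.73 and 9.97 in low NH4+ and 10.95, 11.03 and 10.90 in high NH4+, 2.02-fold higher in high than in low NH4+ (1.02, SE 0.17). For both, low NH4+ overlapped water and all high NH4+ arrays stood above the rest. Clone 114312R was the other case, at 10.78, 11.17 and 10.84 in water, 10.16, 10.27 and 9.59 in low NH4+ and 11.18, 10.95 and 11.08 in high NH4+. It was lower in low NH4+ than in water (-0.92, SE 0.21, called) and 2.09-fold higher in high than in low NH4+ (1.06, SE 0.21), and high NH4+ overlapped water. Without low NH4+ replicate 2, 0 of these 3 calls between the doses were made, and 0 calls over all probe sets.

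An Os08g0480200-like member, named after a rice locus, had the most negative difference of the class in high NH4+ and read 10.35, 9.19 and 11.11 in water, 8.22, 8.65 and 8.23 in low NH4+ and 8.33, 7.77 and 8.26 in high NH4+. It fell at both doses (-2.10 and -1.85, SE 0.42), with water arrays that spread over a wider range than either NH4+ group. Its calls were kept in 5 and 2 of the 9 fits without 1 array. Without water replicate 3 the differences were -1.65 and -1.40, neither of them called. An Os12g0561000-like member was called lower in high NH4+ (-1.34, SE 0.32), where none of its arrays reached a signal of 100, and with lower signals set to 100 the difference was -0.69 and was not called. Its low NH4+ value was -0.27 (SE 0.32), and the difference between the doses of -1.08 (SE 0.32) was not called.

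A further 8 members were called in no comparison. They were dihydrolipoamide dehydrogenase-like, gMDH, NAD-binding oxidoreductase-like, carbohydrate-binding, Os04g0390000-like and clones 135721R, 133264F and 114278R. Taking for each member its lowest limma adjusted p over the 3 comparisons, the highest values within the study's list were those of dihydrolipoamide dehydrogenase-like (0.136) and NAD-binding oxidoreductase-like (0.132), both in high NH4+. Pathway probe sets outside the list were ordered by high NH4+ against water alone. The nearest were CAB4 (-1.29, SE 0.47) and SCOA, a succinyl-CoA ligase subunit (0.56, SE 0.21), with limma adjusted p of 0.16 and 0.169. In low NH4+ the malate dehydrogenase cMDH and PPCK2, also outside the list, had lower limma adjusted p, 0.125 and 0.13. The list and its outside therefore overlapped on this measure.

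Other genes of the same pathways could be matched by symbol to 35 probe sets, and 27 of these were tested, 8 of them members. In high NH4+, 4 of the 27 were called higher and 2 lower (background over all probe sets tested 2.73% and 3.79%). In low NH4+ 0 were called higher and 2 lower (background 0.54% and 2.44%). All of the called probe sets were members, chosen on these same arrays. The median log2 difference of the 27 was 0.11 in high NH4+ (all probe sets -0.08) and -0.02 in low NH4+ (all -0.16). None of the 19 non-members was called by limma, and all but FRK1 lay outside the study's list, so this count was partly fixed by the choice of members. Among them ADH2, an alcohol dehydrogenase of fermentation, differed from water by 0.84 in high NH4+ and 0.76 in low NH4+ (SE 0.38). The enolase PGH1 differed by 0.31 and 0.47 (SE 0.19) and the transaldolase TAL by 0.30 and 0.15 (SE 0.16). AOX1a, the alternative oxidase that bypasses part of the respiratory chain, lay below water on all high NH4+ arrays (-0.58, SE 0.22) and overlapped it in low NH4+ (-0.10), while UCP was called higher in high NH4+. The malic enzymes ME1 and ME2, which release pyruvate from malate, differed from water by at most 0.32 at either dose.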

How the data were processed

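Each of 9 arrays (3 water, 3 low NH4+, 3 high NH4+) was mapped to its treatment by its title. The authors made signals with MAS5 in Affymetrix Expression Console (versions not given in the sources used here) and deposited the natural log of each signal. Dividing the deposited natural log values by ln 2 gave log2 signals, and nothing further was normalized. Of 10209 rows, 171 controls were left out. Probe sets reaching a signal of 100 on at least 1 array were kept (6669). One limma 3.58.1 fit (R 4.3.3) of the 3 groups (6 residual and 2.87 prior degrees of freedom) gave the 3 comparisons. P-values of each comparison were given the Benjamini-Hochberg adjustment, and 10% was the false discovery rate for a call. Plants stood in blocks without replication, which the methods of the array analysis did not use, and whether replicate numbers mark blocks is not stated. Arrays were labelled as biological replicates, and p-values set each mean difference against the spread between these samples.

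Members and pathway lists were chosen with earlier results of these data known, and the symbol lists after the array annotation had been seen. All members are accounted for. Values per array are given for those with a name and for unnamed ones called between the doses or at an extreme, which were picked after their values were seen. The authors' own fold changes and p-values were not used. A gene symbol was known for 909 probe sets, including 8 members, and 885 of these matched a RefSeq gene. Pathway lists were to be matched by gene name, but only symbols could be used. Alternatives were no filter, a signal of 100 on 3 arrays, quantile normalization, median centring, a floor of 100, the methods' test of 1 probe set at a time, the replicate number as a block, a rate of 5% and the omission of each array.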

Additional observations from a re-analysis of the deposited data

How the results depend on the processing

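Called members numbered 23 in high NH4+, 9 in low NH4+ and 3 between the doses. In that order they numbered 8, 4 and 0 with no filter, 28, 5 and 0 after quantile normalization, 16, 10 and 0 after median centring, 12, 0 and 0 by the methods' test, and 7, 1 and 0 at a rate of 5%. By the methods' test, members with an unadjusted p under 0.05 numbered 31, 16 and 18. All probe sets called numbered 435, 199 and 60. They numbered 141, 46 and 11 with no filter, 692, 71 and 2 after quantile normalization, 357, 320 and 14 after median centring, 139, 1 and 0 by the methods' test (1395, 1371 and 1046 unadjusted), and 99, 4 and 2 at 5%. Without any 1 array the members called ranged from 0 to 25, 1 to 14 and 0 to 11, and all probe sets called from 6 to 728, 4 to 1128 and 0 to 862.

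The replicate block left 10, 8 and 0 members and 205, 256 and 6 probe sets. With it the high NH4+ calls of GPI1, MAB1-like, pyruvate dehydrogenase, the 3 called malate dehydrogenases, GAMMA CAL2-like and AAE7/ACN1-like were not made, nor the low NH4+ calls of AAE7/ACN1-like and the first 6-phosphogluconate dehydrogenase probe set. The plants stood in blocks, but no source ties the replicate numbers to them, and the values did not show that the numbers pair the samples. Deviations from the group mean correlated from -0.38 to 0.35 between arrays of the same number and from -0.39 to 0.40 between others. Leaving out low NH4+ replicate 2 and water replicate 3 together, chosen after seeing the data, left 9, 0 and 0 members (29, 14 and 11 unadjusted) and 142, 0 and 8 probe sets (1349, 710 and 828 unadjusted) in limma.

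All members kept their sign in high NH4+ under every alternative. In low NH4+ 28 kept it under median centring and 30 after quantile normalization. gMDH turned from -0.21 to 0.15 and 0.023 under these 2 settings, and the NAD-binding oxidoreductase-like member from -0.24 to 0.13 under median centring. Median centring moved the median of all probe sets from -0.16 to 0.20 in low NH4+ and from 0.07 to -0.17 between the doses. It also changed the split of all called probe sets from 182 higher and 253 lower to 221 and 136 in high NH4+, and from 36 and 163 to 211 and 109 in low NH4+. After quantile normalization these splits were 351 and 341, and 38 and 33. The causes were not tested. Over the named members and the carbohydrate-binding member, 493 of 672 alternative values against water kept both sign and call, 152 lost the call, 24 gained it and 3 changed sign.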
